A study of Caenorhabditis elegans with 10 samples.

Results

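The accessible regions described here lay within 25 kb of 3 regions that the study tested as candidate enhancers near swip-10, gei-13 and C54G6.2 of Caenorhabditis elegans. They comprised 111 peaks of the 55893 in the deposited stage lists, with 32 at the swip-10 locus, 48 at the gei-13 locus and 31 at the C54G6.2 locus. Of these, 58 came from the early embryo list of 27694 peaks, 29 from the list of 13040 for larval stage 3 (L3), and 24 from the young adult list of 15159. The tested regions were chosen by the study on differences in accessibility between these same stages, and these 3 were selected as more open in L3 than in the early embryo or the young adult. Which stages hold a peak at a tested region is therefore given as a description, with no test. ATAC-seq, in which a transposase cuts open chromatin, was run on nuclei of whole N2 worms, the wild-type strain, grown at 20°C. Each of 3 stages had 3 replicates, namely early embryos, L3 larvae at 36 h and young adults at 57 h after the egg lay, and 1 library of genomic DNA served as input. The files used here hold 1 peak list per stage, made from pooled replicates, so no spread between replicates could be given and no stage difference was tested. Sequencing was shallowest for L3 and deepest for the early embryo, according to the paper, and the part of depth in the differences between lists was not tested. In whole animals, fewer cells with an open region and a less open region in each cell cannot be told apart.

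Enhancers are stretches of DNA bound by transcription factors that raise transcription of a gene from a distance, and the nucleosomes over an active enhancer are displaced so that the transposase can reach it. Opening and closing of such regions accompanies the passage from the dividing cells of the embryo to the differentiated tissues of the larva and the adult. swip-10 encodes a protein with a metallo-beta-lactamase domain that acts in glia and protects dopamine neurons in C. elegans. gei-13 is named for an interaction with GEX-3, a component of the WAVE complex, which directs actin assembly during cell movement. No role is given here for C54G6.2 or for its neighbour C54G6.3, whose names the third tested region shares. In the reporter lines of the study, which place a region before a minimal promoter and GFP, the authors described signal along the flank of the worm for the swip-10 region, in the hypodermis for the gei-13 region and in the pharynx for the C54G6.3/C54G6.2 region. According to the paper, none of the flanking control regions gave a specific and consistent GFP pattern. It adds that the gei-13 region had earlier been proposed to be a promoter. The reporter images were not analysed here.

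The cloned swip-10 and gei-13 fragments are defined by the primers below, which are shown because they set the DNA that was carried into worms. Each is the part that pairs with the worm genome, 5′ to 3′, without the added cloning tail, and no base is capitalised because no motif was searched. The paper reports a GAGA motif of the transcription factor EOR-1 in the swip-10 enhancer, which was not looked for here. The primers named for F53B1.6, the locus tag of swip-10 on chromosome X, and those named for C15H7.3, the gene after gei-13 on chromosome III, were designed to take in some sequence on either side of the region. The pair for the flank of the swip-10 region amplified a negative control outside the peaks of accessibility.
swip-10 region, forward: ttgaaaatctatccaatgtagtgttg
swip-10 region, reverse: ttgttacaaaagattcctgcgtta
swip-10 flank, forward: ctgcgattttggagcgttat
swip-10 flank, reverse: aaggcatgtaaaatttaaacaaca
gei-13 region, forward: tcaaatgccgtagaaaaagaaa
gei-13 region, reverse: tccgctttgtggacatacaa
The genomic parts of the swip-10 region primers were 26 and 24 bases long, and those of the gei-13 region primers 22 and 20.

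The swip-10 region, chrX:2116353-2117003 in ce10, was 651 bp wide and had peaks in L3 and the early embryo. In the gene order of the reference table, swip-10 lies between bus-5, a gene named for its part in the response to a bacterium that sticks to the cuticle, and gpa-5, which encodes a G protein alpha subunit. Its ends are the outer edges of 2 adjoining L3 peaks, of 354 bp and 297 bp, so the full cover in L3 follows from how the region was defined. Their fold enrichments, the ratio of transposase insertions at the summit to those expected from the surrounding sequence of that pooled library, were 6.22 and 4.78. Here and below, folds of different lists stand side by side as each list's own value, and no difference is read between them. In the early embryo 2 separate peaks of 214 bp and 183 bp covered 61.0% of the region, and reached fold enrichments of 1.88 and 2.34. No peak was listed there in the young adult. The pair of sites was the same in both stages, since the early embryo summits lay 27 bp and 2 bp from those of L3 and each early embryo peak fell wholly inside an L3 peak. The stronger L3 peak had a higher fold than 86.9% of its list and the other than 77.1%, whereas the matching early embryo peaks exceeded 31.3% and 64.6% of theirs. These places come from lists of unequal length, at a region selected as more open in L3. Over all 10548 counterpart pairs of the lists the L3 peak had the higher place in 30.4%, and among neighbours of the 3 tested regions in 7 of 18 pairs.

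The gei-13 region, chrIII:9646331-9646662, was also found in L3 and the early embryo and not in the young adult, but at a low rank in both lists. The table places gei-13 after ubc-7, a ubiquitin-conjugating enzyme, and before C15H7.3. The region is by its coordinates the L3 peak, 332 bp wide, with a fold enrichment of 2.67. The early embryo peak was 204 bp wide, covered 61.4% of the region and had a fold enrichment of 1.89. The summits lay 2 bp apart. The L3 peak exceeded 37.0% of the L3 list in fold and the early embryo peak 32.7% of its list, so both lay below the median of their lists. With every list reduced to the 13040 peaks of highest fold or −log10 q, the early embryo peak dropped out and the region was found in L3 alone. Among the 15 L3 peaks of the locus the tested one ranked 6 by fold.

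The C54G6.2 region, chrI:1000922-1001216, was 295 bp wide and had a peak in all 3 stages. The table orders the genes here as hmbx-1, a homeobox gene, then C54G6.3, C54G6.2 and madf-6. The fold enrichment was 5.66 in L3, 5.03 in the early embryo and 3.75 in the young adult, over peaks of 261 bp, 230 bp and 228 bp. These peaks covered 88.5%, 78.0% and 77.3% of the region in that order. The 3 summits lay within 18 bp of each other. By rank within its own list this site stood highest in the early embryo, where it exceeded 96.1% of peaks against 83.7% in L3 and 72.8% in the young adult. It was the strongest early embryo peak of its locus, the second of 9 in the young adult and the third of 7 in L3. The rule's order of the stages, with L3 most open, is thus not the order of these ranks by fold, which come from lists of different length and depth. By −log10 q the peak ranked 1303 of 13040 in L3, 1318 of 27694 in the early embryo and 4189 of 15159 in the young adult.

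The study listed a further region at this locus that carries no test number, chrI:998886-999818. It was 933 bp wide and its coordinates are those of 1 L3 peak, the widest of the 29 L3 peaks at the 3 loci. Its fold enrichment was 5.98, above that of 85.7% of the L3 list and of the tested region beside it. The young adult list had a 530 bp peak there with a fold enrichment of 4.13, covering 56.8% of the region, and the early embryo list had none. So a site open in L3 and the young adult lay 1.10 kb from one open in all stages.

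**Figure D1:**
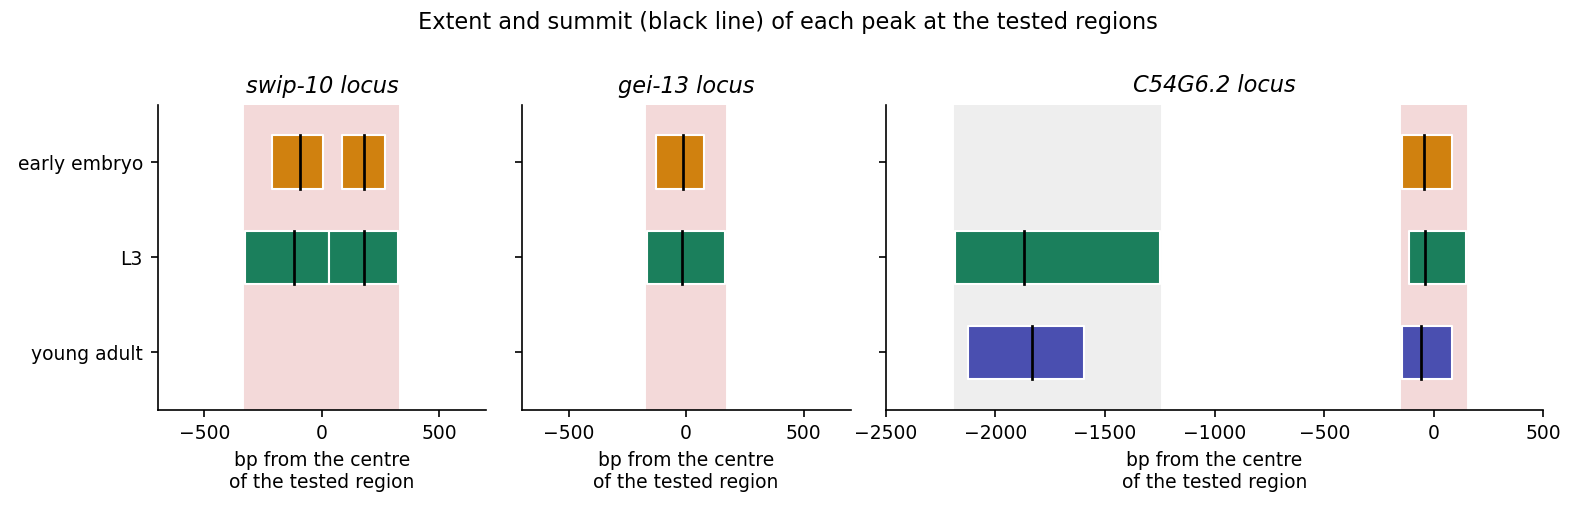
Extent of each peak at the tested regions (pink) and at the further listed C54G6.3/C54G6.2 region (grey), by stage list. The x axis is the distance in bp from the centre of the tested region and black lines mark summits. The swip-10 and gei-13 regions have the bounds of L3 peaks, the early embryo peaks lie inside them around nearly the same summits, and young adult peaks are drawn at the C54G6.2 locus alone.

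Tested regions held 4 early embryo peaks, 4 L3 peaks and 1 young adult peak. The other peaks are here called neighbours. A neighbour has a counterpart in another list where the overlap covers at least 0.5 of either peak. The L3 list had 25 neighbours, the early embryo list 54 and the young adult list 23.

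At the swip-10 locus 6 of 7 L3 peaks exceeded the median fold of the L3 list, which was 3.08. These include the adjoining peaks of the tested region, at 6.22 and 4.78, which was itself selected as more open in L3. The locus held 20 early embryo, 7 L3 and 5 young adult peaks, against medians of 17, 9 and 10 within 25 kb of all 13038 nuclear L3 peaks. The young adult number was the low one, since 83.4% of those windows had more. Its tested region stood alone. The nearest L3 neighbours lay 7.84 kb away toward lower coordinates and 14.7 kb away toward higher ones. The young adult list had nothing from its peak 7.84 kb below the region to one 22.1 kb above it.

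The strongest L3 peak of the swip-10 locus was 24.2 kb toward higher coordinates. It ranked 1107 in the L3 list at a fold enrichment of 7.41, beside 5.19 for the young adult peak there. No early embryo peak matched it. A site 8.28 kb toward lower coordinates was open in all stages, with fold enrichments of 6.59 in L3, 5.20 in the early embryo and 4.66 in the young adult. It was the strongest early embryo peak of the locus. A further site, 22.5 kb toward higher coordinates, was also found in all stages, with fold enrichments of 5.10 in L3, 2.55 in the young adult and 1.76 in the early embryo. These 3 sites were the strongest young adult peaks of the locus as well.

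L3 peaks without a counterpart at the swip-10 locus were chrX:2097635-2097910 and chrX:2131667-2132029. The first had a fold enrichment of 2.62 and the second 4.03, the highest of the 6 such L3 peaks at the 3 loci. All 5 young adult peaks of the locus had a counterpart in another list. A count of 0 of 5 without one allows a share of up to 52.2% (exact 95% interval), which includes the 17.3% of the whole young adult list. Of the 20 early embryo peaks, 14 were found in that list alone, or 70.0% (45.7 to 88.1%) against 50.9% of the whole list, which the interval contains. They included the peaks with fold enrichments of 2.87 and 2.48 that ranked next after the shared site, at 7.48 kb toward lower and 18.3 kb toward higher coordinates.

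The gei-13 locus was the densest. Its 15 L3 peaks exceeded the number around 90.1% of L3 peaks, and it held 23 early embryo and 10 young adult peaks. Most of the L3 peaks were weak. Only 4 of 15 exceeded the median fold of the L3 list, and the median of the 15 was 2.57. In L3, 8 of 15 adjoined another peak without a gap, a share of 53.3% against 23.1% in the whole L3 list. Adjoining peaks arise where the authors split an open stretch between summits, so these are not separate stretches.

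The strongest peak of the gei-13 locus was the same site in every stage, 21.5 kb toward higher coordinates. It reached a fold enrichment of 11.0 in L3, rank 260, with 10.4 in the young adult and 7.07 in the early embryo. Its neighbour at 22.0 kb was shared too, with fold enrichments of 3.07, 2.65 and 2.88 in the same order. At 19.1 kb a site had fold enrichments of 3.52 in L3, 4.47 in the young adult and 1.59 in the early embryo, the last being the lowest of the 23 early embryo peaks there. Toward lower coordinates a site at 5.38 kb had a fold enrichment of 4.01 in L3, 2.89 in the young adult and 2.41 in the early embryo. The third of the young adult peaks, 8.18 kb toward lower coordinates, had a fold enrichment of 4.17, and its adjoining counterparts in L3 had 2.64 and 2.57.

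Between that lower group and the tested gei-13 region lay a run of L3 peaks shared with the early embryo and not with the young adult. The run held 4 L3 peaks, with summits at 4.41, 4.08, 1.48 and 1.33 kb toward lower coordinates and fold enrichments of 3.11, 1.96, 1.75 and 2.16. The early embryo peak at 4.40 kb, with a fold enrichment of 2.69, was the third strongest of its neighbours there. The young adult list had 1 peak within the run, 2.81 kb below the region, where the early embryo had a counterpart and L3 had none. The tested region thus shared its stage membership with the 4 nearest L3 neighbours on that side. These are not separate stretches. The peaks at 4.41 and 4.08 kb adjoined, and those at 1.48 and 1.33 kb adjoined and matched the same early embryo peak. With every list reduced to equal length, only the early embryo peak at 4.40 kb was left among their counterparts.

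L3 peaks without a counterpart at the gei-13 locus were chrIII:9639896-9640293 and chrIII:9662383-9662830, with fold enrichments of 2.30 and 2.27. Another 3 peaks belonged to the young adult alone. They were chrIII:9630472-9630765 at 2.104, the adjoining chrIII:9630766-9631055 at 2.20 and chrIII:9637794-9638113 at 2.14. All of these folds lay below the median of the list they came from. Of the 23 early embryo peaks, 9 were found in that list alone, or 39.1% (19.7 to 61.5%), an interval that also contains the 50.9% of the whole list.

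At the C54G6.2 locus all L3 peaks lay at the tested region or toward lower coordinates. The locus held 15 early embryo, 7 L3 and 9 young adult peaks. The strongest L3 peak, 12.01 kb toward lower coordinates, was open in all stages. Its fold enrichment was 6.27 in L3, 3.61 in the young adult and 3.30 in the early embryo. A site 22.3 kb toward lower coordinates was shared by L3, at 3.46, and the early embryo, at 1.81. After the site at 12.01 kb, the strongest early embryo neighbours lay 9.52 kb away, at 2.95 and with a young adult counterpart, and 19.3 kb away, at 2.32 and with none.

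L3 peaks without a counterpart at this locus were chrI:979544-979751, with a fold enrichment of 2.56, and chrI:985024-985231, with 2.21. Young adult peaks without one were chrI:986780-986986 at 2.49, chrI:1015180-1015539 at 2.26 and chrI:1016943-1017163 at 3.27. The last exceeded 64.2% of the young adult list and was the third strongest young adult neighbour. Toward higher coordinates the early embryo had 3 peaks, 3.15, 3.45 and 7.11 kb from the centre of the region, and the young adult had 2. None of these had a counterpart. Over the locus 8 of 15 early embryo peaks had none in either other list, or 53.3% (26.6 to 78.7%) against 50.9% of the whole list. For the young adult it was 3 of 9, or 33.3% (7.49 to 70.1%) against 17.3%. Both intervals contain the value of the list.

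**Figure D2:**
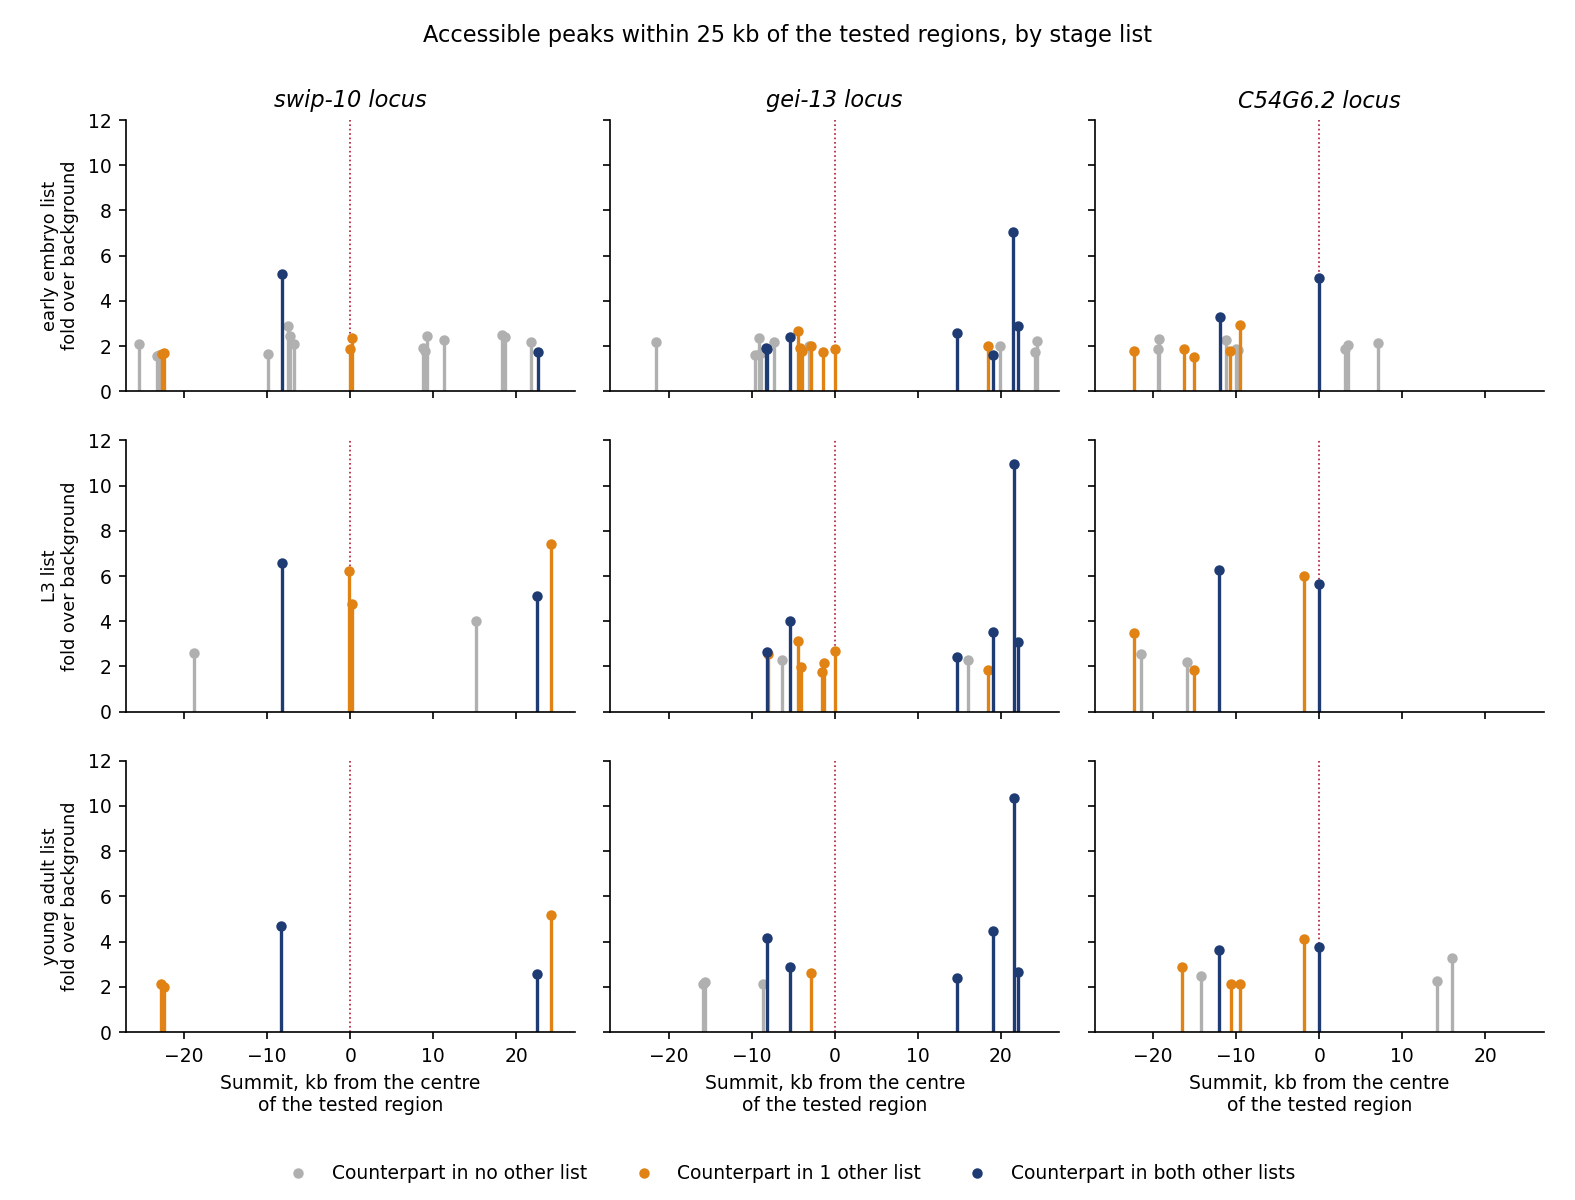
Fold enrichment over the local background of each peak (y axis) by distance of its summit in kb from the centre of the tested region (x axis), for the 3 loci in columns and the stage lists in the order early embryo, L3 and young adult. Colour gives the number of other lists with a counterpart, and folds are not comparable between lists. The strongest peak of the gei-13 locus is in all lists, the young adult list is empty around the swip-10 region, and L3 has no peak beyond the C54G6.2 region.

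Each window's edge was set by distance alone. At the swip-10 locus the L3 peak just inside it was 23.7 kb from the region and the one just outside 27.7 kb toward higher coordinates, and on the other side 18.4 and 25.5 kb. At the gei-13 locus these were 21.6 and 27.03 kb toward higher and 7.92 and 26.5 kb toward lower coordinates. At the C54G6.2 locus the lower pair was 22.0 and 26.9 kb, and the next L3 peak toward higher coordinates lay 52.4 kb away. The peaks just outside had fold enrichments between 2.09 and 8.18.

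Over the 3 loci, 16 of 29 L3 peaks had no young adult counterpart. This was 55.2% (exact 95% interval 35.7 to 73.6%), against 27.3% of all L3 peaks. At the swip-10 and C54G6.2 loci it was 4 of 7 each and at the gei-13 locus 8 of 15. Since the tested regions were selected on this difference, the share was also taken without them, and 13 of 25 L3 neighbours, or 52.0% (31.3 to 72.2%), had none. The interval covers counting error only. Neighbours that adjoin or lie within a few kb are not independent, and with peaks within 50 kb of the regions the share was 22 of 53, or 41.5%.

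In lists of full length the other shares had intervals that held the value of the whole list. An early embryo counterpart was lacking for 9 of 29 L3 peaks, or 31.0% (15.3 to 50.8%), against 23.7% in the list. Neither other stage had one for 6 of 29, or 20.7% (7.99 to 39.7%), against 10.9%. In lists of equal length by fold these L3 shares were higher, at 20 of 29, or 69.0%, and 14 of 29, or 48.3%. Both lay above the intervals just given. All L3 peaks at that setting had 45.6% and 21.5%, and no interval was taken there. Within 10 kb of the regions 1 of 14 L3 peaks lacked both. Of the 24 young adult peaks, 8 lacked an early embryo counterpart, against 28.3% in the list, 12 lacked an L3 counterpart, against 38.1%, and 6 lacked both, against 17.3%. For the 58 peaks of the early embryo, 37 were without one in L3, against 62.7%, 41 lacked a young adult counterpart, against 59.0%, and 31 lacked both, against 50.9%.

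**Figure D3:**
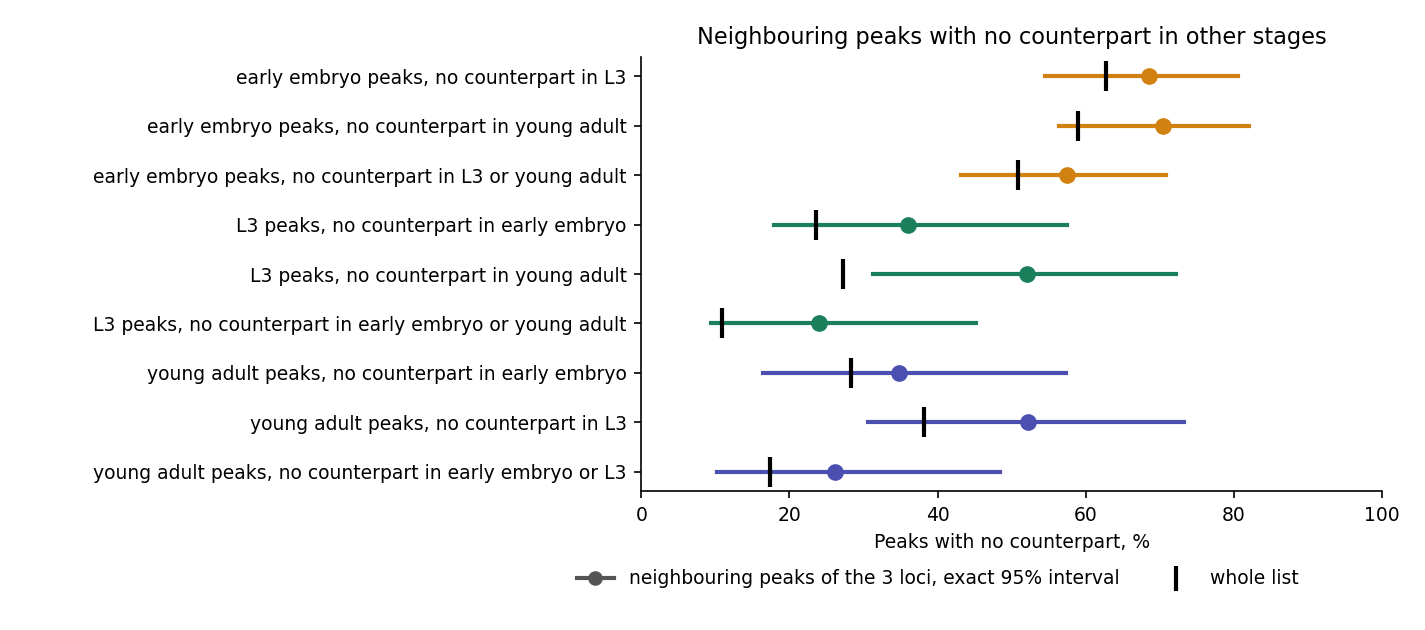
Percentage of neighbouring peaks with no counterpart in another stage list (points, with exact 95% intervals for counting error), without the peaks at the tested regions, and the same percentage in the whole list (black bars). For L3 against the young adult the 25 neighbours lie at 52.0%, with an interval from 31.3 to 72.2%, and the list at 27.3%. With the lists at full length, the other intervals contain the value of their list.

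In each list the neighbours shared by all stages had the highest median fold. In L3 the 9 neighbours with counterparts in both other lists had a median fold enrichment of 4.01, and 6 of them exceeded the list median. The 10 with 1 counterpart had a median of 2.37 and the 6 with none 2.43. In the young adult the medians were 3.61 for 9 neighbours found in all stages, 2.37 for 8 with 1 counterpart and 2.23 for 6 with none. In the early embryo they were 2.49 for 10, 1.81 for 13 and 2.09 for 31. The tested C54G6.2 region, found in all stages, and the swip-10 region, lacking in the young adult, both lay above the L3 median of 4.01 for shared neighbours, and the gei-13 region lay below it.

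**Figure D4:**
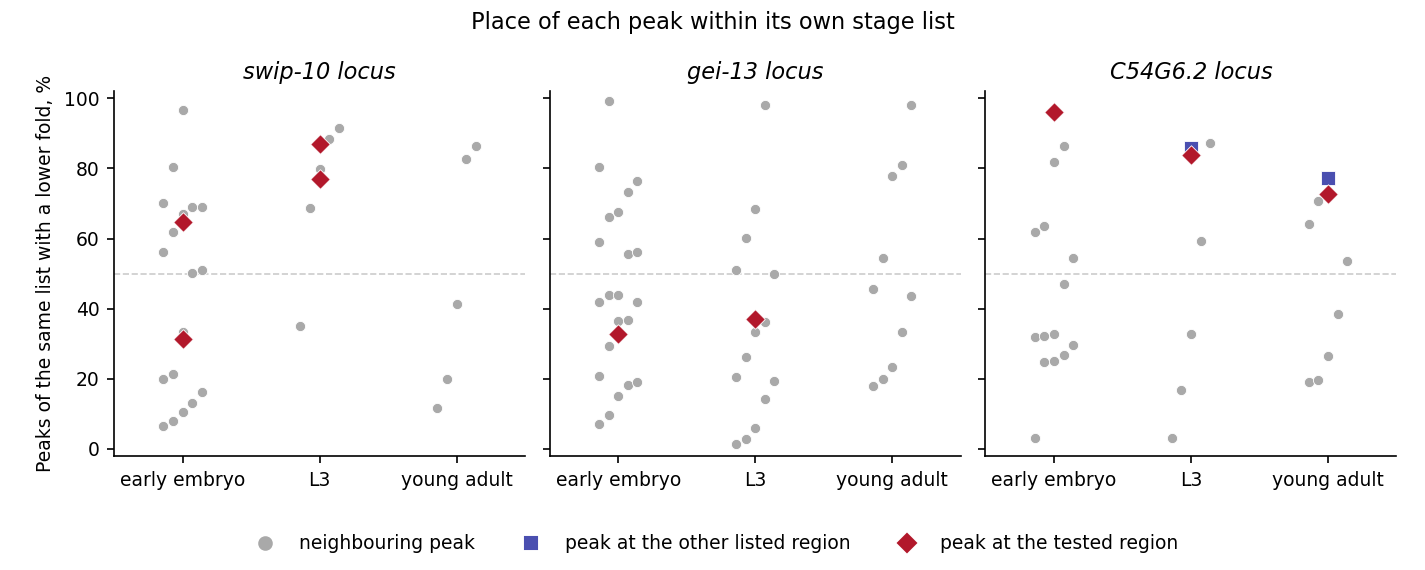
Percentage of peaks in the same stage list with a lower fold (y axis) for each peak of the 3 loci, by list (x axis). Red diamonds are peaks at the tested regions, blue squares peaks at the further listed C54G6.3/C54G6.2 region and grey circles neighbours. The swip-10 diamonds are higher in L3 than in the early embryo, the gei-13 diamonds stay below the dashed line at 50%, and the C54G6.2 diamond is highest in the early embryo at 96.1%.

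For most sites found in more than 1 stage the summits lay close together. Among 22 counterpart pairs of early embryo and L3 peaks at the 3 loci the median distance between summits was 12.5 bp, and 18 pairs, or 81.8%, were within 50 bp. Over all 10548 such pairs of the lists the median was 13 bp and 84.5% were within 50 bp. The 13 pairs of L3 and young adult peaks had a median of 4 bp, beside 9 bp in the lists, and 12 were within 50 bp. The 17 pairs of early embryo and young adult peaks had a median of 18.0 bp, beside 13 bp, and 13 of them, or 76.5%, were within 50 bp against 84.8% in the lists. The farthest pairs were 179, 174 and 167 bp apart for early embryo and L3, early embryo and young adult, and L3 and young adult. The 6 pairs at the tested regions were 2 to 27 bp apart.

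Peak widths at the loci were also close to those of the lists. L3 peaks of the 3 loci had a median width of 304 bp, from 171 to 933 bp, beside 286 bp in the list. Young adult peaks had a median of 292 bp beside 286 bp, and early embryo peaks 229.5 bp beside 240 bp.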

How the data were processed

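ATAC-seq of 9 stage libraries and 1 input library was analysed from the deposited peak lists, 1 for each stage. Members and lists of comparisons were chosen with earlier results of these data known. According to the methods and submitters' notes, the authors mapped reads to ce10 with Bowtie2 2.1.0, removed duplicates with Picard and merged replicates. They used MACS for peaks at a q of 0.05, split these between summits, and removed blacklisted peaks and peaks seen in the input. They also favoured peaks found consistently across the replicates. A peak missing from a list can thus have failed that step and is not a measured lack of signal. In the deposited lists, fold enrichment is the ratio of signal to surrounding background, and the deposited −log10 q values come from the same comparison and rise with depth. Both were used to rank and filter peaks within a list, and folds of different lists are given side by side without a comparison of size. The depth of each library is not held in the lists. Tested regions were taken from the study's list of cloned regions by name and test number, and peaks were members when any part lay within 25 kb of one. A peak was called at a region when it overlapped it by at least 1 bp. Counterparts between stages overlapped by at least 0.5 of either peak. Their counts differed by 0 peaks from those of bedtools 2.31.1. A run on L3 peaks moved by less than 0.5 of their width had to find them all, so it checked the code alone. Ranks used fold enrichment. Exact (Clopper-Pearson) 95% intervals cover counting error only.

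The peaks named were those at the tested regions and the further listed region, the 3 strongest neighbours in each list and locus, L3 or young adult peaks with no counterpart, and L3 peaks next to a window's edge. Alternatives were −log10 q of at least 2 or 5, lists of equal length (13040 peaks by −log10 q or by fold), overlap of 1 bp or of 0.5 of both peaks, adjoining peaks joined, windows of 10 or 50 kb, and ranks by −log10 q. A −log10 q of at least 20 and shares without the tested regions were added after seeing the data. Of 5 gene names looked up in the WBcel235 gene table, 5 matched, and only names and the order of genes were taken from it, since its build differs from ce10. No ce10 genome or annotation was used, so distances to transcription start sites and region sequences are not analysed here. Python 3.11.15, pandas 2.3.3, scipy 1.17.1 and matplotlib 3.10.9 were used.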

Additional observations from a re-analysis of the deposited data

How the results depend on the processing

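Of 177 values under alternatives, 157 were counted as the same and 20 as moved. A share was the same anywhere in its reported interval, a peak count or rank within a fixed ratio, and a number of stages when equal. Shares counted as the same could thus differ widely. No peak of the 3 loci had a −log10 q below 8.79. The settings of 2 and 5 therefore removed none of them, every value stayed the same, and these settings add no support. The share of L3 peaks with no young adult counterpart stayed within its interval under all 11 alternatives, from 40.9 to 58.6%. It was the same 16 of 29 at the settings of 2 and 5, in lists of equal length and with an overlap of 1 bp. Staying within so wide an interval is no test of a difference from the list. With lists of equal length, the deep early embryo list lost peaks. Its numbers fell to 9, 8 and 5 at the swip-10, gei-13 and C54G6.2 loci by −log10 q, and to 9, 9 and 6 by fold. The gei-13 region then had a peak in 1 stage, L3, under both orders. L3 peaks with no early embryo counterpart came to 69.0% under both, beside 45.7% (by −log10 q) and 45.6% (by fold) of all L3 peaks in such lists. Those with none in either stage came to 48.3% under both, beside 21.2% and 21.5%. Young adult peaks with no early embryo counterpart came to 63.6% by −log10 q and 65.2% by fold, beside 48.1% and 47.5% of such lists. With a −log10 q of at least 20, early embryo peaks with no counterpart came to 66.7%, beside 55.0% of the list. L3 peaks with no young adult counterpart came to 9 of 22, or 40.9%, beside 24.8% of the list. No interval was taken at that setting. Those with no early embryo counterpart came to 45.5%, beside 27.3% of the list, and were counted as the same. Young adult peaks with none in L3 came to 25.0%, below the 38.2% of the list at that setting, whereas the reported 50.0% lay above its 38.1%. That setting left 4 L3 peaks at the C54G6.2 locus and 3 young adult peaks at the swip-10 locus. Within 10 kb, 7.14% of L3 peaks had no counterpart. By −log10 q the L3 peak at the C54G6.2 region ranked 1303 instead of 2126, and the early embryo peak 1318 instead of 1078. The cause of these differences was not tested beyond the removal of peaks that defines each setting. No paired analysis was possible because the lists pool the replicates, and for the same reason no replicate could be left out.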
